A study of Homo sapiens with 10 samples.

Results

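The zinc finger genes of chromosome 19 were examined in 4 lines made from the human prostate cancer line PC3. Members were the gene entries with a locus on chromosome 19 and a symbol of the form ZNF followed by digits, and 235 of 23170 gene entries met this rule. PC3-Epi (2 samples) is a luciferase-vector-carrying PC3 subpopulation selected for bioluminescence and epithelial morphology, and PC3-EMT14 (3 samples) is a mesenchymal population recovered after PC3-Epi cells had been grown together with human macrophages made from CD14+ monocytes with IL-4. Lentiviral overexpression of the zinc finger transcription factor OVOL1 in PC3-EMT14 gave PC3-EMT14-OVOL1 (3 samples), and overexpression of the related OVOL2 gave PC3-EMT14-OVOL2 (2 samples), so the other lines descend from PC3-Epi. The comparison line for both OVOL lines in these data is PC3-EMT14 as labelled, and PC3-EMT14 is a single derived population, so line and treatment cannot be told apart. RNA was measured by paired-end sequencing, and each line has 1 pooled FPKM value (fragments per kilobase of transcript, scaled to the fragments of the library) per gene and comparison. Since samples were pooled by the authors, no spread between samples could be computed, no test was made, and every ratio below has no replicate check.

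C2H2 zinc finger proteins bind DNA through tandem finger repeats, and many of those encoded on chromosome 19 also carry a KRAB domain. The KRAB domain recruits the corepressor TRIM28, which brings the histone H3 lysine 9 methyltransferase SETDB1 and heterochromatin proteins to the bound site, and many KRAB zinc finger proteins silence transposable elements in this way. The genes lie in tandem clusters that arose by duplication, so neighbours are often close paralogs and short reads can be hard to assign between them.

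All 235 members were found in the RefSeq gene table, 231 by symbol and 4 by synonym, and 230 were annotated as protein coding and 5 as transcribed pseudogenes. On hg19, 127 lay on the plus strand and 108 on the minus strand. Ordered by locus start and split where starts were more than 1 Mb apart, they formed 16 clusters, of which the 2 with the most members held 58 (ZNF628 to ZNF446) and 39 (ZNF175 to ZNF331). One entry carries both ZNF177 and ZNF559, and 4 members share a locus with another member (ZNF565 with ZNF146, and ZNF571 with ZNF540), so their reads may not be separable.

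The labels of the lines were checked on their markers. CDH1, which encodes E-cadherin, had 50.6 FPKM in PC3-Epi, 1.00 in PC3-EMT14, 16.2 in PC3-EMT14-OVOL1 and 39.2 in PC3-EMT14-OVOL2, and VIM, which encodes vimentin, had 42.5, 271, 183 and 76.9 in the same order. OVOL1 was at 11.3 FPKM in its overexpressing line against 0.0243 in PC3-EMT14, and OVOL2 at 831 against 0.383. The 8 macrophage markers examined each had 0.214 or less FPKM in every line, their summed level lay between 0.276 and 0.456 FPKM, and TYROBP was listed at 0 in 3 of the 4 lines.

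A stretch of 6 neighbouring members, from ZNF577 to ZNF614 on hg19 chr19:52359056-52531680, held the window of consecutive members with the largest median difference between lines, and upstream sequence for 4 of its genes is printed here with that of ZNF432, the next gene along, and of ZNF426, the member over 1 FPKM with the widest range between lines. Each run is the 250 bases upstream of the RefSeq start site, read 5′ to 3′ on the strand of the gene and placed by an exact match on GRCh37 (hg19), with CG dinucleotides in capitals. The windows are chr19:52391205-52391454 for ZNF577, chr19:52490094-52490343 for ZNF350, chr19:52511465-52511714 for ZNF615, chr19:52531633-52531882 for ZNF614, chr19:52552092-52552341 for ZNF432 and chr19:9649322-9649571 for ZNF426, all on the minus strand.
ZNF577: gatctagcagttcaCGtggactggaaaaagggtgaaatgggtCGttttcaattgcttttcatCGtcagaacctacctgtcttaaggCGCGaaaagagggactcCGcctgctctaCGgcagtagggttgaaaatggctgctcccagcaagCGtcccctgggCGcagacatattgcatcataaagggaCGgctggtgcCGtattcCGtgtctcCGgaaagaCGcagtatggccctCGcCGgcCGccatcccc
ZNF350: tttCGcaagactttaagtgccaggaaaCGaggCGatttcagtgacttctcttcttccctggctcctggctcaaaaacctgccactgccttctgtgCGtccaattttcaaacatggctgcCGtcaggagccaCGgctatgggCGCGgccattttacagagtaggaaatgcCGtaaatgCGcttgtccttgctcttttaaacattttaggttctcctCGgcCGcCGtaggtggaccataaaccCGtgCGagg
ZNF615: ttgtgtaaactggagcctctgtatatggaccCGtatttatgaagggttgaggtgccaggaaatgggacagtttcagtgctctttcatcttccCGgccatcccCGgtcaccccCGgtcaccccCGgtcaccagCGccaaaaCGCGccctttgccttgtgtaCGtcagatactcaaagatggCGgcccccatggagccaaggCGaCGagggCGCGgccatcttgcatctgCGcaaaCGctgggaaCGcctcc
ZNF614: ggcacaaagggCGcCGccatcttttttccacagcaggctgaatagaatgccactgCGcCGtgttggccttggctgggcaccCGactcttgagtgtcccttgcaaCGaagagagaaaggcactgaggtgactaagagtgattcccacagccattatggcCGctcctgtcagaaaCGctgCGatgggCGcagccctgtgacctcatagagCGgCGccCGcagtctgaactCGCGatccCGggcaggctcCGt
ZNF432: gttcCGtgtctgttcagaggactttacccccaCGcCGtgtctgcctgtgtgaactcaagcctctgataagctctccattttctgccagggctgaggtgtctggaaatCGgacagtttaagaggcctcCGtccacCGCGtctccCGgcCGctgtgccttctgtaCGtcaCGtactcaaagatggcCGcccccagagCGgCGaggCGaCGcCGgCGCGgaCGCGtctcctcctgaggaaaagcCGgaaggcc
ZNF426: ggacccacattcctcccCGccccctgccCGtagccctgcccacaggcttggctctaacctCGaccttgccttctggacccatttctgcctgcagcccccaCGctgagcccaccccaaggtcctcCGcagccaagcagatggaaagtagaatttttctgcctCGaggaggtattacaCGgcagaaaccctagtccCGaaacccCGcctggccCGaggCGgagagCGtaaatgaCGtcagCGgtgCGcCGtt

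These windows held 17 CG dinucleotides for ZNF577, 15 for ZNF350, 17 for ZNF615, 17 for ZNF614, 22 for ZNF432 and 16 for ZNF426. ZNF649 was not matched to a promoter.

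Most members were expressed at low to moderate levels in every line. The mean over the 4 lines was 1 FPKM or more for 142 members (60.4%, against 52.3% of all genes), of which 95 lay between 1 and 5 FPKM, and 15 reached 10 FPKM. A further 46 members had a mean of 0.1 to 1 FPKM and 47 had less than 0.1 FPKM. In this lowest class ZNF573 was listed at 0 in all 4 lines, and 12 members in all were listed at 0 in at least 1 line, none of them with 1 FPKM or more in another.

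The highest mean belonged to ZNF787, with 35.5 FPKM in PC3-Epi, 26.7 in PC3-EMT14, 30.5 in PC3-EMT14-OVOL1 and 35.6 in PC3-EMT14-OVOL2. ZNF581 had 22.5, 32.8, 33.3 and 30.8 FPKM in the same order of lines. ZNF146, which consists of fingers without a KRAB domain, had 33.9, 28.5, 28.5 and 22.2 FPKM. Thus the abundant members differed in which line was highest. ZNF444, a SCAN-domain protein, ZNF547, ZNF83, ZNF761 and ZNF317 completed the 8 highest, with values between 13.7 and 23.0 FPKM in all 4 lines. ZNF266 had the narrowest range of the 142 members, from 10.3 to 10.9 FPKM, followed by ZNF574 and ZNF816, whereas ZNF426, ZNF551 and ZNF614 had the widest. The median range between a member's highest and lowest line was 0.56 on the log2 scale.

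**Figure D1:**
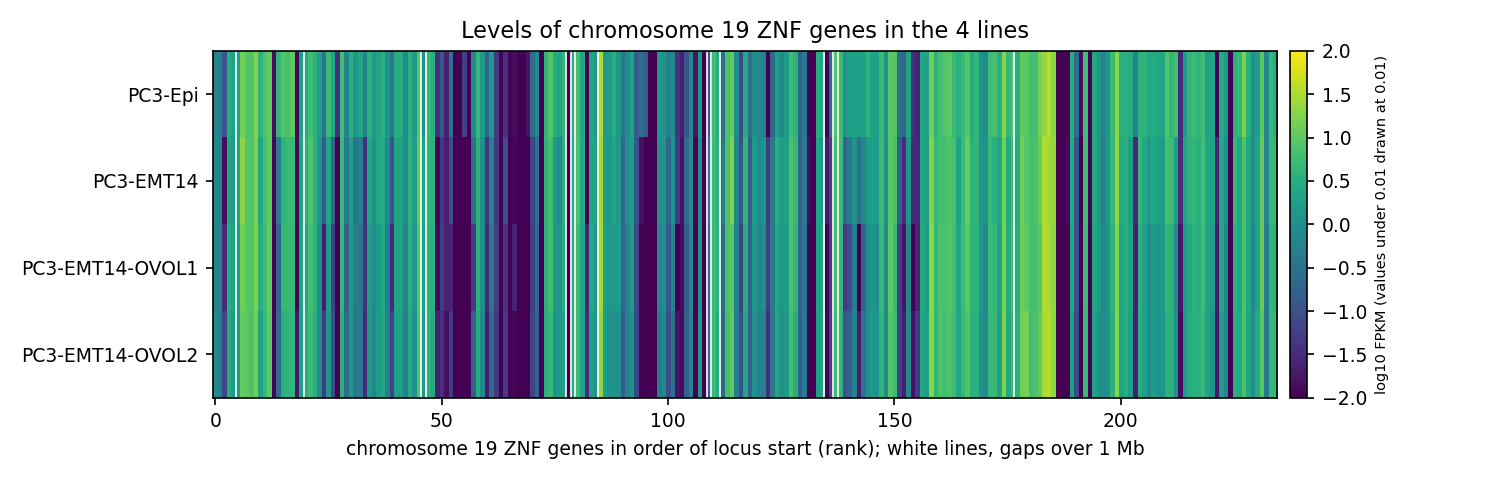
Levels of the 235 chromosome 19 ZNF genes as log10 FPKM (colour) in the 4 lines (rows), with genes ordered by locus start (columns) and white lines at gaps over 1 Mb. Dark columns, the 47 members with a mean below 0.1 FPKM, lie together in places, and 17 of them are among the 31 members from ZNF101 to ZNF254.

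Levels differed by cluster. In the cluster from ZNF101 to ZNF254 (chr19:19779663-24312654), 17 of 31 members had a mean under 0.1 FPKM and 9 had 1 FPKM or more, the highest being ZNF675 with 8.94 FPKM in PC3-Epi, 6.24 in PC3-EMT14, 6.10 in PC3-EMT14-OVOL1 and 4.83 in PC3-EMT14-OVOL2. In the cluster from ZNF175 to ZNF331, 3 of 39 members were under 0.1 FPKM and 30 had 1 FPKM or more. The highest of the cluster from ZNF653 was ZNF791, with 8.86, 10.9, 9.23 and 7.65 FPKM in the same order of lines, and that of the cluster from ZNF302 was ZNF302 itself, with 6.28, 6.98, 5.76 and 5.39 FPKM. In the most distal cluster, ZNF628 to ZNF446, 8 of 58 were under 0.1 FPKM and 44 had 1 FPKM or more.

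Promoter CG content was set beside these levels as a feature the choice of members did not use. A RefSeq window of 300 bases (250 before and 50 after the start site) was placed once on chromosome 19 for 203 members. For 177 of them the start site lay within 100 bases of the 5′ end of the deposited locus. Others were farther off, with 38761 bases for ZNF177, so their windows may not belong to the measured transcripts. The median window held 21 CG dinucleotides, against 14 over the 35116 promoters of the table. Each member had 1 window, that nearest the 5′ end of its deposited locus, whereas all promoters were counted without such a choice. By level class the median was 22 for the 130 members with a mean of 1 FPKM or more, 19.5 for the 36 between 0.1 and 1 FPKM, and 16 for the 37 under 0.1 FPKM. The classes overlapped widely, with 4 to 42 CG in the highest class and 2 to 49 in the lowest.

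**Figure D2:**
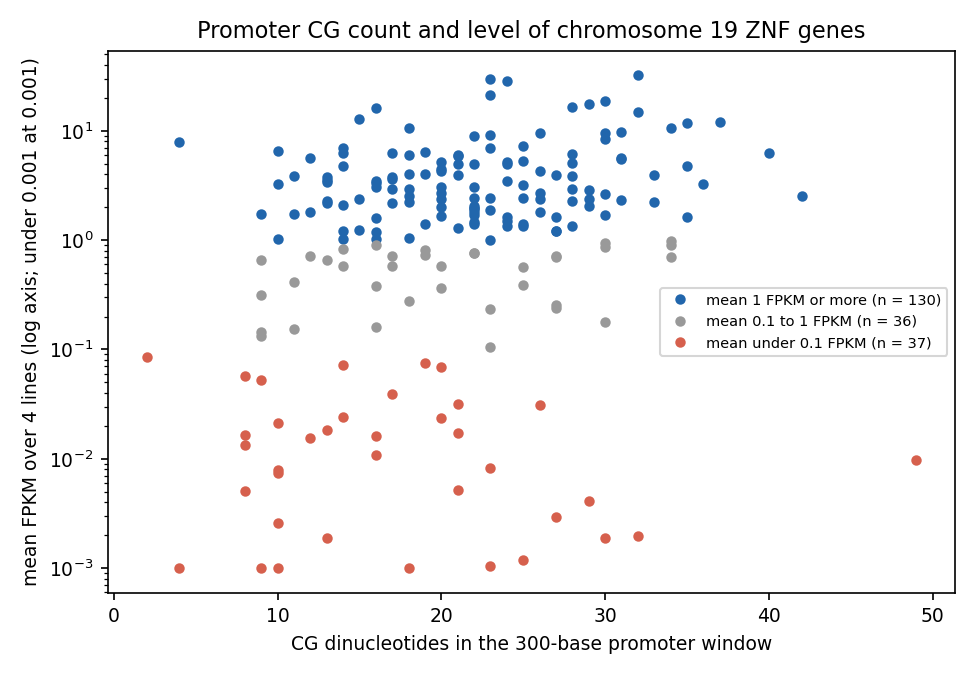
Mean FPKM over the 4 lines (log axis) against the number of CG dinucleotides in the 300-base promoter window, for 203 chromosome 19 ZNF genes. Colours mark the 3 level classes, with medians of 22, 19.5 and 16 CG from the highest class to the lowest, and ranges that overlap.

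Since both overexpressed factors are OVO proteins, the windows were also searched on both strands for CCGTTA, a core letter sequence of OVO sites. It was present in 13 of the 203 members (6.40%) and in 3.07% of all promoters, which again were counted without the choice of 1 window per gene. The motif contains a CG dinucleotide, and members hold more of these than other promoters do, and the part of that difference in the count was not tested. CCGTTA or any of its variants, which are CTGTTA and also ACGTTA as well as ATGTTA, was present in 40 members (19.7%) and in 19.0% of all promoters. ZNF225, ZNF433, ZNF441 and ZNF491 were among the members with CCGTTA, as were ZNF382 and ZNF529, whose windows overlap head to head. ZNF350 held 1 or more of the 4 sequences but not CCGTTA, and ZNF577, ZNF613, ZNF614, ZNF615 and ZNF426 held none of them.

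By median and by sum, the members were highest in PC3-Epi and lowest in PC3-EMT14-OVOL2. The median FPKM over the 235 members was 2.05 in PC3-Epi, 1.66 in PC3-EMT14, 1.45 in PC3-EMT14-OVOL1 and 1.24 in PC3-EMT14-OVOL2, and the sum was 823, 763, 701 and 661 FPKM. ZNF genes of other chromosomes had the same order of medians (3.07, 3.04, 2.74 and 2.52 FPKM). Their sums were 1508, 1667, 1490 and 1373 FPKM, so by sum PC3-EMT14 was highest and PC3-EMT14-OVOL2 again lowest. Over all genes the median was 1.24 FPKM in PC3-Epi and 1.35 in PC3-EMT14-OVOL2, whereas the sum was, as for the members, highest in PC3-Epi (476275 FPKM) and lowest in PC3-EMT14-OVOL2 (415900 FPKM). Among the 142 members with a mean of 1 FPKM or more, 79 (55.6%) were highest in PC3-Epi, against 38.9% of all genes at that level. PC3-EMT14-OVOL2 was the lowest line for 90 of the 142 (63.4%), against 32.0% of all genes. These levels come from separately normalized tables, between which the values of the same line differed by factors of 1.00 to 1.03 in the median.

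PC3-Epi was compared with PC3-EMT14 to find which members differed between the epithelial line and the mesenchymal line derived from it. Of the 142 members, 10 were at least 2-fold higher in PC3-Epi and 1 was at least 2-fold lower, whereas 6.18% of all genes at that level were higher and 7.19% lower. The share of higher members (7.04%) was near this background and that of lower members (0.704%) was below it. Their median log2 ratio was 0.11, with 87 above 0 and 55 below. Over all genes the median was −0.01, over the 190 ZNF genes of other chromosomes −0.01, and over the other genes of chromosome 19 −0.11.

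ZNF426 showed the largest difference, with 4.66 FPKM in PC3-Epi, 0.482 in PC3-EMT14, 0.180 in PC3-EMT14-OVOL1 and 0.245 in PC3-EMT14-OVOL2 (log2 ratio of PC3-Epi to PC3-EMT14 3.27). ZNF551 followed with 6.36, 1.57, 0.826 and 1.03 FPKM (log2 ratio 2.02). In both genes the OVOL lines lay below PC3-EMT14. ZNF426 was the 1 member of the 10 whose other 3 lines had a mean under 1 FPKM. It therefore passed that level, and entered the count, through PC3-Epi itself. ZNF544 was the most abundant of the 10, with 16.2 FPKM in PC3-Epi against 7.43, 7.19 and 7.73 FPKM in the mesenchymal and OVOL lines (log2 ratio 1.13). ZNF726 had 2.54, 0.908, 1.45 and 1.49 FPKM and lay between its mesenchymal and epithelial levels in both OVOL lines. The other higher members were ZNF614 (log2 ratio 1.36), ZNF681 (1.06), ZNF433 (1.05), ZNF562 (1.01), ZNF121 (1.00) and ZNF440 (1.00), so several stood at the 2-fold limit itself. ZNF274, whose protein recruits SETDB1 to the 3′ ends of zinc finger genes, was just short of the limit with 4.82 FPKM in PC3-Epi and 2.45 in PC3-EMT14 (log2 ratio 0.98).

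ZNF225 was the 1 member at least 2-fold lower in PC3-Epi, with 0.865 FPKM in PC3-Epi, 1.75 in PC3-EMT14, 1.34 in PC3-EMT14-OVOL1 and 1.01 in PC3-EMT14-OVOL2 (log2 ratio −1.01). ZNF224, a KRAB repressor encoded next to it, had 1.91, 3.07, 2.36 and 2.24 FPKM (log2 ratio −0.69). The other members with the largest ratios in this direction were ZNF333 (log2 ratio −0.93), ZNF428 (−0.68), ZNF446 (−0.67) and ZNF155 (−0.57).

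Members of 0.1 to 1 FPKM were described separately, a class added after the values had been seen. Of these 46, 20 were at least 2-fold higher in PC3-Epi and 3 at least 2-fold lower, beside 17% and 26.2% of all genes in that range, and the median log2 ratio was 0.56 against −0.21 over all genes. Membership of the class partly rests on PC3-Epi itself, since 10 of the 46, 8 of them among the 20, had a mean under 0.1 FPKM in the other 3 lines. When the class was set by those 3 lines alone, 13 of 43 members were at least 2-fold higher and 3 lower, beside 16.5% and 26.4% of all genes. At such levels a value can rest on few reads, and the number of reads is unknown. ZNF439 had 2.47 FPKM in PC3-Epi, 0.218 in PC3-EMT14, 0.0598 in PC3-EMT14-OVOL1 and 0.0924 in PC3-EMT14-OVOL2. ZNF772 had 0.576, 0.0291, 0.0198 and 0.0225 FPKM, and ZNF788, now annotated as a pseudogene, 0.622, 0.0349, 0.0415 and 0.0299. All 3 had 0.218 FPKM or less in the other lines. The 3 lower members were ZNF546, ZNF222 and ZNF284, and the last pair lie upstream of ZNF225.

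**Figure D3:**
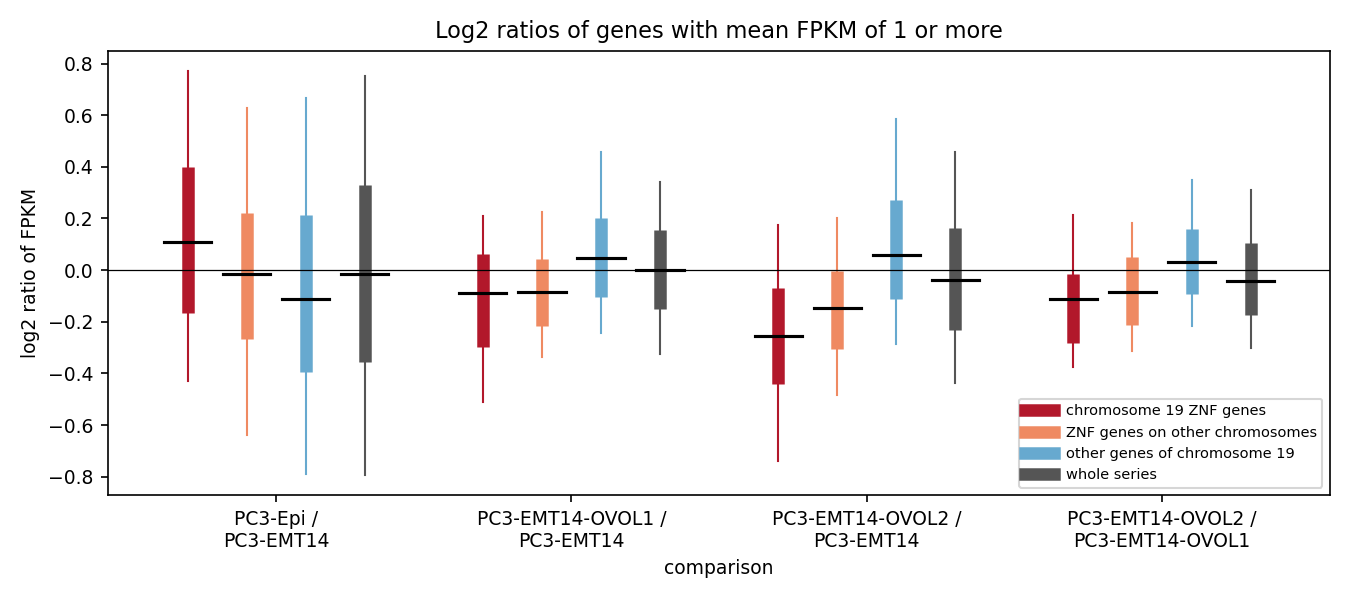
Log2 ratios of FPKM for genes with a mean of 1 FPKM or more, in 4 sets and 4 comparisons. Thick bars run from the 25th to the 75th percentile, thin lines from the 10th to the 90th, and black ticks are medians. The chromosome 19 ZNF genes have the highest median for PC3-Epi / PC3-EMT14 (0.11) and the lowest for PC3-EMT14-OVOL2 / PC3-EMT14 (−0.26).

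PC3-EMT14-OVOL1 was compared with PC3-EMT14 to describe the members under OVOL1 overexpression. None of the 142 members was at least 2-fold higher and 2 were at least 2-fold lower, where the background over all genes was 2.2% higher and 0.899% lower. The 2 were ZNF426 (log2 ratio −1.39) and ZNF613, which had 1.94 FPKM in PC3-Epi, 1.13 in PC3-EMT14, 0.526 in PC3-EMT14-OVOL1 and 0.568 in PC3-EMT14-OVOL2 (log2 ratio −1.08). Both passed the level of 1 FPKM through PC3-Epi, which is not in this comparison, and when the mean of PC3-EMT14 and PC3-EMT14-OVOL1 was used instead, none of 137 members was 2-fold lower. The median was −0.09, with 54 members above 0 and 88 below, against 0.00 over all genes, −0.08 over other ZNF genes and 0.05 over the other genes of chromosome 19. Close to the limit stood ZNF428, the most abundant gene of its cluster, with 17.6 FPKM in PC3-EMT14 and 9.21 in PC3-EMT14-OVOL1 (log2 ratio −0.90), as well as ZNF551, ZNF549 and ZNF614 (−0.89 each). ZNF726 had the largest ratio in the other direction (0.70), followed by ZNF525 (0.47), ZNF296 (0.42), ZNF57 (0.37), ZNF699 (0.36) and ZNF77 (0.35).

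In the class of 0.1 to 1 FPKM, none of the 46 members was at least 2-fold higher in PC3-EMT14-OVOL1 and 11 were at least 2-fold lower, beside 8.26% and 10.7% of all genes in that range. Their median log2 ratio was −0.54, against −0.13 over all genes. ZNF85, for example, had 0.755 FPKM in PC3-Epi, 0.284 in PC3-EMT14, 0.0520 in PC3-EMT14-OVOL1 and 0.155 in PC3-EMT14-OVOL2. ZNF491 had 0.366, 0.147, 0.0204 and 0.0473 FPKM. Both were lowest in the OVOL1 line. The class was set with PC3-Epi included, which is not in this comparison. Without PC3-Epi, the mean of ZNF491 was under 0.1 FPKM.

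PC3-EMT14-OVOL2 was compared with PC3-EMT14 in the same way and uses the same PC3-EMT14 samples. None of the 142 members passed 2-fold in either direction, where 3.87% of all genes were higher and 2.12% lower. The difference was instead small and spread over most members, with 115 of 142 below 0 and a median log2 ratio of −0.26. Over all genes the median was −0.04, over ZNF genes of other chromosomes −0.15 (142 of 190 below 0), and over the other genes of chromosome 19 0.06. The lowest ratios belonged to ZNF613 (−0.95), ZNF549 (−0.94), ZNF426 (−0.93), ZNF260 (−0.93), ZNF440 (−0.86) and ZNF45 (−0.83). ZNF549 had 2.38 FPKM in PC3-Epi, 1.60 in PC3-EMT14, 0.846 in PC3-EMT14-OVOL1 and 0.808 in PC3-EMT14-OVOL2. ZNF524 was the member with the largest ratio above 0, with 9.97, 8.93, 10.1 and 15.1 FPKM (log2 ratio 0.80), and ZNF726 (0.76), ZNF607 (0.76), ZNF525 (0.59), ZNF296 (0.58) and ZNF837 (0.48) came after it.

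Transcript GC content moved with this ratio over all genes. Genes were split into 4 groups of equal size by the GC content of their longest GENCODE transcript, and the median log2 ratio of PC3-EMT14-OVOL2 to PC3-EMT14 was −0.14 in the group of lowest GC, −0.08 and −0.02 in the middle ones and 0.09 in the highest. The members had a lower GC content than other genes (median 43.1% against 47.9%), and 110 of the 141 with a value lay in the 2 lower groups. Within the lowest group the 47 members had a median of −0.29, in the next the 63 members had −0.35, and in the highest group the 19 members had −0.04. For PC3-Epi against PC3-EMT14 the medians of all genes ran from 0.06 in the lowest group to −0.12 in the highest, and those of the members from 0.25 to −0.16. The part of GC content in these medians was not tested.

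Of the 46 members of 0.1 to 1 FPKM, 10 were at least 2-fold lower in PC3-EMT14-OVOL2 and none at least 2-fold higher, beside 9.66% and 14.7% of all genes in that range. The median was −0.51, against 0.07 over all genes. Here too the class was set with PC3-Epi included, which is not in this comparison. ZNF569 had 0.773 FPKM in PC3-Epi, 1.12 in PC3-EMT14, 0.633 in PC3-EMT14-OVOL1 and 0.355 in PC3-EMT14-OVOL2 (log2 ratio −1.62). Among members of 0.1 FPKM or more, it formed a run of 5 with ZNF850, ZNF420, ZNF383 and ZNF527 (chr19:37234380-37958339), whose median was −0.98. Members under 0.1 FPKM between ZNF850 and ZNF420 were left out of this run, and ZNF383 had a mean just over 1 FPKM.

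PC3-EMT14-OVOL2 and PC3-EMT14-OVOL1 were also compared directly. No member of the 142 passed 2-fold (background 1.41% higher and 0.758% lower), and the median log2 ratio was −0.11, with 107 members below 0, against −0.04 over all genes. ZNF524 (0.59), ZNF607 (0.56), ZNF426 (0.46), ZNF841 (0.40), ZNF837 (0.38) and ZNF274 (0.35) were the highest. ZNF699 (−0.59), ZNF529 (−0.55), ZNF254 (−0.51), ZNF256 (−0.49), ZNF333 (−0.49) and ZNF121 (−0.48) were the lowest. In the class of 0.1 to 1 FPKM, 6 of 46 were at least 2-fold higher in PC3-EMT14-OVOL2, beside 11.2% of all genes, and none lower, beside 2.76%. Among them were ZNF577, ZNF649 and ZNF350. The class was set with PC3-Epi and PC3-EMT14 included, and ZNF350 had only 0.0211 and 0.00934 FPKM in the lines compared. This comparison shares no samples with that of PC3-Epi and PC3-EMT14, and across the 142 members the log2 ratios of the pair had a Pearson correlation of 0.25 and a Spearman correlation of 0.14, near those over 11975 genes (0.24 and 0.11).

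**Figure D4:**
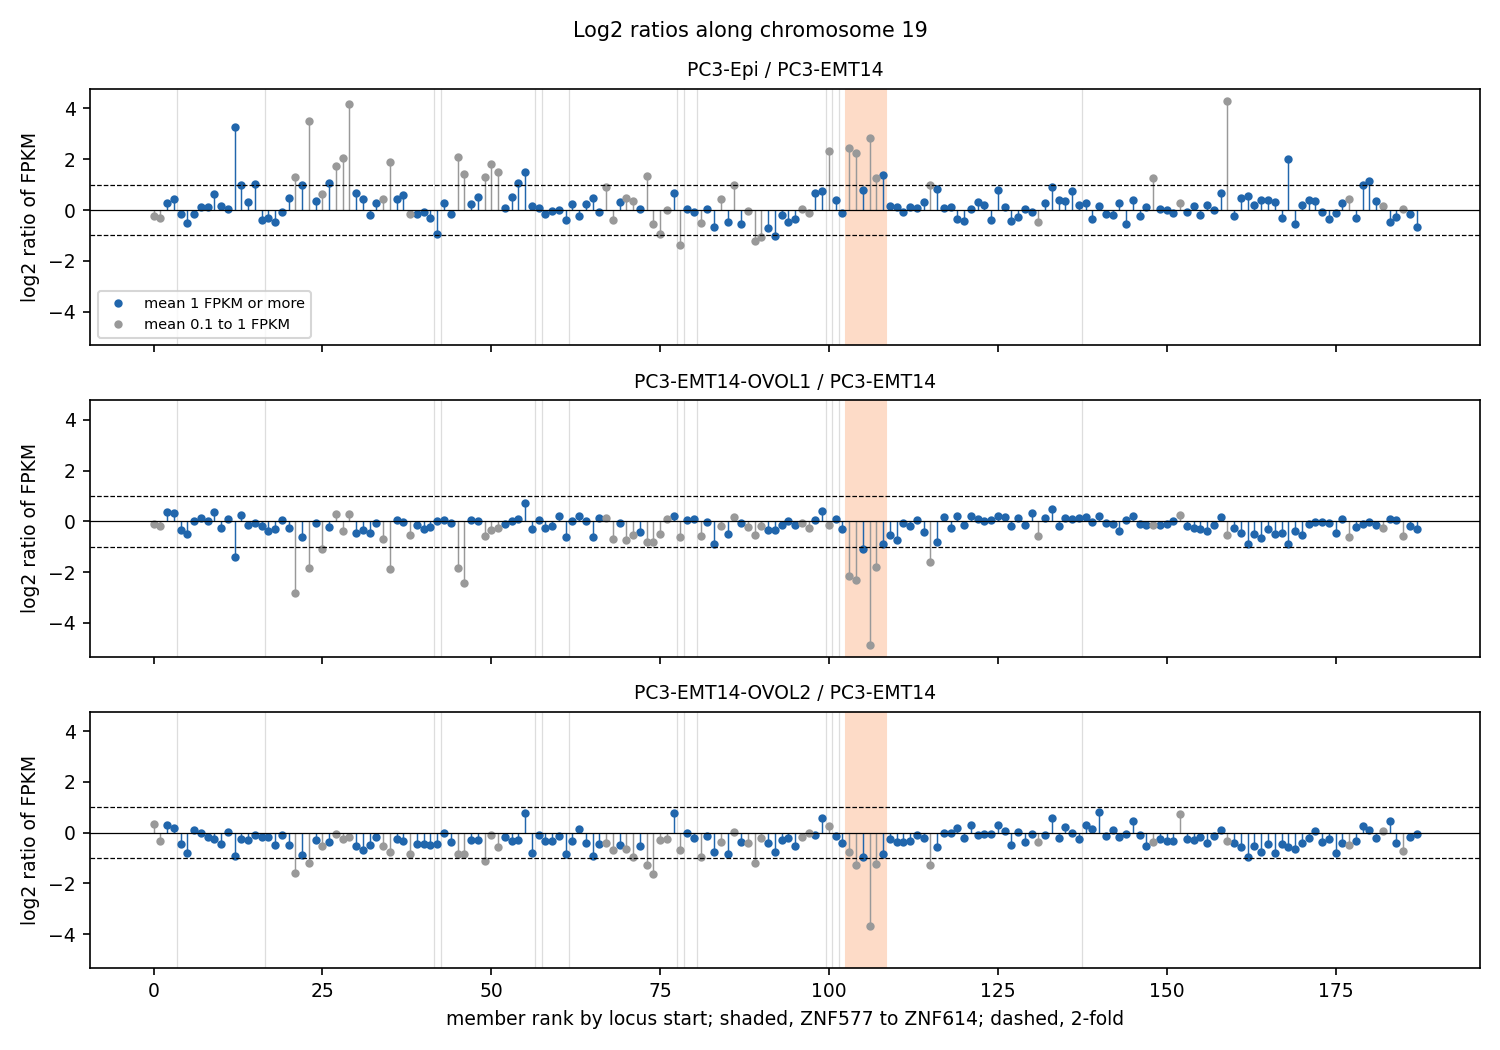
Log2 ratio of FPKM for the 188 members with a mean of 0.1 FPKM or more, in order of locus start, for the 3 comparisons with PC3-EMT14, which share its samples. Blue points have a mean of 1 FPKM or more and grey points 0.1 to 1 FPKM, dashed lines mark 2-fold, and the shaded run from ZNF577 to ZNF614 lies above 0 in the top panel and below 0 in the others.

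Position along the chromosome was examined next, with the members whose mean over the 4 lines was 0.1 FPKM or more. Of these, 10 had a mean under 0.1 FPKM in the lines other than PC3-Epi, and 8 of the 10 were at least 2-fold higher in PC3-Epi. Window medians for PC3-Epi against PC3-EMT14 thus rest partly on the level of PC3-Epi itself. Among the 145 windows of 5 consecutive members, the median of the window medians for PC3-Epi against PC3-EMT14 was 0.20, and the highest value, 2.26, was that of ZNF577 to ZNF615 (chr19:52359056-52511483). The same window had the lowest value for PC3-EMT14-OVOL1 (−2.16) and for PC3-EMT14-OVOL2 (−1.24), each against PC3-EMT14, and the highest for PC3-EMT14-OVOL2 against PC3-EMT14-OVOL1 (1.05), in each case tied with a window that overlaps it by 4 members. This run was picked from the windows by its values, so its ratios are a description. Apart from ZNF613 and ZNF614, the members of the run had a mean under 1 FPKM and were named after their values had been seen.

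ZNF350, also called ZBRK1, encodes a KRAB protein that binds BRCA1. Its level was 2.01 FPKM in PC3-Epi, 0.277 in PC3-EMT14, 0.00934 in PC3-EMT14-OVOL1 and 0.0211 in PC3-EMT14-OVOL2, so that it was close to absent in both OVOL lines (log2 ratio to PC3-EMT14 −4.86 and −3.67). ZNF577 (chr19:52359056-52391229) had 1.16, 0.212, 0.0463 and 0.120 FPKM in the same order. ZNF649 (chr19:52392488-52408305), a KRAB protein gene, had 2.07, 0.431, 0.0847 and 0.173 FPKM. Both had the same order of lines as ZNF350. ZNF615 (chr19:52494587-52511483) had 1.80, 0.750, 0.213 and 0.308 FPKM, and ZNF614 (chr19:52516577-52531680) 4.16, 1.62, 0.856 and 0.885. ZNF613, described above, is on the plus strand, whereas the other 5 are on the minus strand. In all 6 genes the levels descended from PC3-Epi through PC3-EMT14 and PC3-EMT14-OVOL2 to PC3-EMT14-OVOL1.

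The ratio of PC3-Epi to PC3-EMT14 was smaller in the members next to the run. On its centromeric side ZNF175 had 5.28 FPKM in PC3-Epi, 5.68 in PC3-EMT14, 4.54 in PC3-EMT14-OVOL1 and 4.20 in PC3-EMT14-OVOL2. On its telomeric side ZNF432 had 2.02, 1.80, 1.21 and 1.46 FPKM, ZNF841 had 1.80, 1.64, 0.954 and 1.24 FPKM, and ZNF616 had 5.22, 5.50, 5.16 and 4.18 FPKM. The log2 ratios of PC3-Epi to PC3-EMT14 in these 3 genes were 0.17, 0.13 and −0.07. Against PC3-EMT14 the level in PC3-EMT14-OVOL1 gave no such edge, with log2 ratios of −0.53 for ZNF432 and −0.75 for ZNF841 beside −0.89 for ZNF614. The descending order of lines seen in the run was also that of ZNF432 and ZNF841. Further along the cluster it was found in ZNF480 and in ZNF528, which had 2.17, 1.23, 0.690 and 0.801 FPKM. At lower levels ZNF610, with 0.302, 0.153, 0.0492 and 0.0604 FPKM, and ZNF880, with 0.210, 0.0300, 0.0166 and 0.0207 FPKM, had it too. Since ZNF426 and ZNF551 in other clusters also had this order, it was not particular to the run. The printed upstream window of ZNF432 held 22 CG, more than the 15 to 17 of the 4 printed genes of the run. In the windows of 300 bases the run and its neighbours overlapped. ZNF577 held 25 CG, ZNF613 18, ZNF350 17, ZNF615 22 and ZNF614 23, while ZNF175 and ZNF841 held 22, ZNF616 24 and ZNF432 27.

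**Figure D5:**
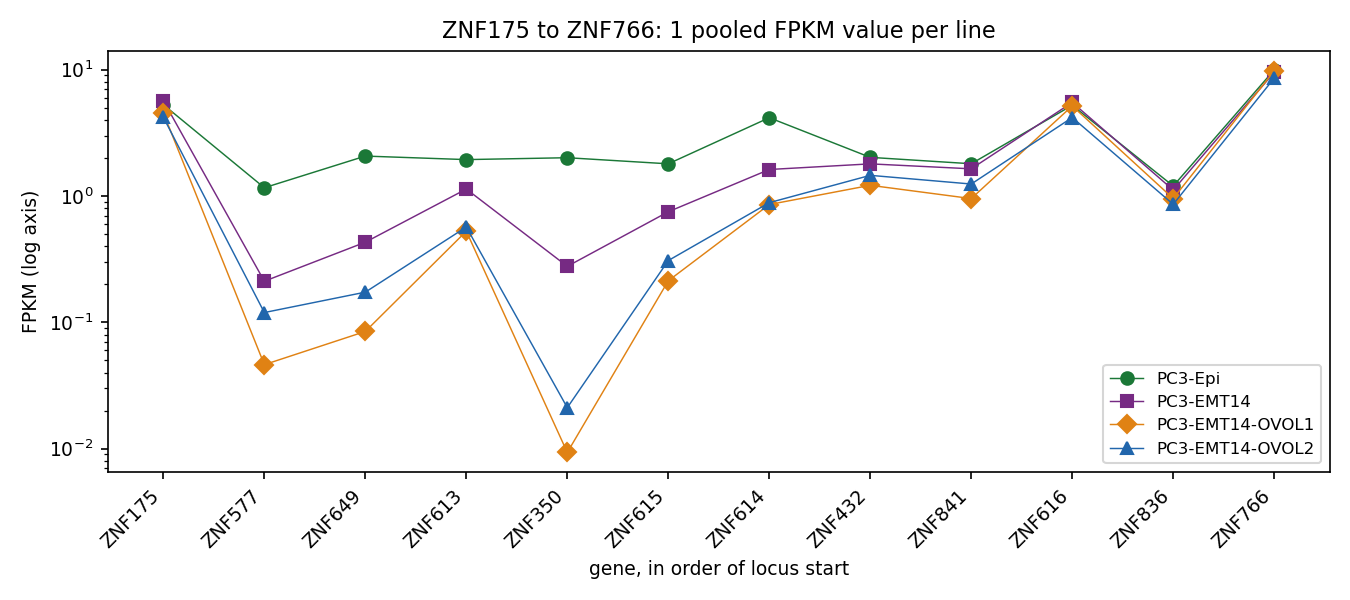
FPKM (log axis) of 12 neighbouring members from ZNF175 to ZNF766 in locus order, with 1 pooled value per line and lines drawn only to guide the eye. The 4 lines spread apart from ZNF577 to ZNF614 and lie closer together at both ends of the plot, and ZNF350 shows the widest spread, from 0.00934 to 2.01 FPKM.

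Other runs stood apart in 1 comparison. They too were picked by their values. ZNF433, ZNF878, ZNF844, ZNF788 and ZNF20 (chr19:12125532-12251140) had a median log2 ratio of 1.74 for PC3-Epi against PC3-EMT14. Of these genes, ZNF788 reached a mean of 0.1 FPKM through PC3-Epi alone. ZNF844, for instance, had 2.21 FPKM in PC3-Epi, 0.532 in PC3-EMT14, 0.401 in PC3-EMT14-OVOL1 and 0.435 in PC3-EMT14-OVOL2, so that the OVOL lines stayed near the mesenchymal level. The lowest run was ZNF222, ZNF284, ZNF224, ZNF225 and ZNF234 (chr19:44529494-44664462), with a median of −1.01, tied with the overlapping run from ZNF230 to ZNF225. ZNF223, which lies between ZNF222 and ZNF284, had a mean under 0.1 FPKM and was left out. ZNF222 had 0.556, 1.30, 0.881 and 0.555 FPKM and ZNF284 0.222, 0.457, 0.394 and 0.382 FPKM, both highest in PC3-EMT14. By cluster, the 11 members over 1 FPKM between ZNF575 and ZNF296 had a median of −0.46, with 8 below 0, whereas the 16 such members from ZNF653 to ZNF791 had a median of 0.31 and were all below 0 in PC3-EMT14-OVOL2 against PC3-EMT14 (median −0.44).

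Ratios of adjacent members were weakly correlated. Over 127 pairs of adjacent members of 1 FPKM or more, the Spearman correlation of log2 ratios was 0.30 for PC3-Epi against PC3-EMT14, 0.26 for PC3-EMT14-OVOL1 and 0.34 for PC3-EMT14-OVOL2, each against PC3-EMT14. Over 672 to 677 adjacent pairs of the other genes it was −0.01, −0.02 and 0.00. The points share the same pooled libraries, and adjacent members can share reads as paralogs, whose part in the correlation was not tested.

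Isoform values were available for all 142 members, and 44 had 2 or more isoforms. The leading isoform was the same in both lines for 38 of 44 members in PC3-Epi against PC3-EMT14, 41 in PC3-EMT14-OVOL1 and 38 in PC3-EMT14-OVOL2, each against PC3-EMT14, and 41 in the direct comparison. It differed, in the same order, for 6, 3, 6 and 3 of the 44, and for 7.97%, 5.38%, 6.83% and 5.69% of all genes with 2 or more isoforms at that level. ZNF181 had the largest shift, since the isoform with 75.7% of its summed FPKM in PC3-EMT14 held 9.67% in PC3-Epi, while its gene level was 2.50 and 2.46 FPKM. In ZNF234, 57.7% of the FPKM in PC3-EMT14 came from an isoform that held 0.00927% in PC3-EMT14-OVOL2. ZNF331, an imprinted gene with several promoters, changed its leading isoform in all 3 comparisons with PC3-EMT14, as ZNF234 did. The leading isoform of ZNF331 in PC3-EMT14 held 52.6% there, 39.7% in PC3-Epi, 46.9% in PC3-EMT14-OVOL1 and 37.6% in PC3-EMT14-OVOL2. The isoform that led in the other lines held 46.9% in PC3-EMT14, so the lead there was narrow. Shares of isoforms were estimated by the authors from short reads, and their error is unknown.

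Corepressors through which KRAB proteins act were listed together with other chromatin factors, among them DNMT1, UHRF1 and ATRX, and with ZFP57. Of 21 genes in this list 20 had 1 FPKM or more, with a median log2 ratio of 0.15 in PC3-Epi against PC3-EMT14. In that comparison 1 was at least 2-fold higher and 1 at least 2-fold lower, beside 6.18% and 7.19% of all genes at that level. TRIM28, the KRAB cofactor itself, had 191 FPKM in PC3-Epi, 147 in PC3-EMT14, 144 in PC3-EMT14-OVOL1 and 145 in PC3-EMT14-OVOL2. SETDB1 had 6.86, 6.11, 6.77 and 6.74 FPKM. The higher gene was UHRF1, which brings DNA methyltransferase DNMT1 to replicating DNA, with 37.1, 18.0, 19.1 and 21.3 FPKM (log2 ratio 1.04). The lower one was ATRX, a chromatin remodeller of repeats, with 7.90, 17.1, 11.4 and 9.31 FPKM (log2 ratio −1.11). None of the 20 passed 2-fold in the comparisons of the OVOL lines, where the medians were −0.05 for PC3-EMT14-OVOL1, −0.15 for PC3-EMT14-OVOL2 and −0.04 directly. Of all genes at that level, 2.2% were higher and 0.899% lower for PC3-EMT14-OVOL1, and 3.87% and 2.12% for PC3-EMT14-OVOL2. In the direct comparison these shares were 1.41% and 0.758%. ZFP57, an imprinting regulator, was below 0.1 FPKM in every line.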

How the data were processed

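The 10 samples were grouped into 4 lines by their labels. The authors checked 50-base read pairs with FastQC, mapped them with TopHat to the hg19 transcriptome of UCSC, and deposited FPKM values from Cuffdiff, normalized within each pair of lines with pooled samples, so depth is unknown and no interval or test was possible. The deposited tables also hold the authors' fold changes, test statistics, p-values and q-values, which were not used. Log2 ratios were recomputed without a pseudocount in Python 3.11.15 (pandas 2.3.3, numpy 2.4.6, scipy 1.17.1, matplotlib 3.10.9), and the script was tested on simulated data. Counts used members with a mean of 1 FPKM or more over the 4 lines and a 2-fold limit. Cuffdiff's status was OK for all 142 except ZNF419, which failed in both tables with PC3-EMT14-OVOL1. GC content came from GENCODE transcripts, found for 86.4% of genes. RefSeq promoters (GRCh38.p14 table) were placed on GRCh37 by exact match. Deposited starts count from 0 and were shifted by 1, after which 113 members matched a GENCODE transcript start, against 7 as deposited.

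Members and lists were chosen with earlier results of these data known. The text names, per comparison, the 6 largest ratios in each direction among the 142, the 8 highest members, the highest of each cluster of at least 3, and the 3 narrowest and 3 widest ranges (45 members in all). Others were named after their values were seen. Alternatives were another floor, pseudocount, fold limit, centring and cluster gap, and a floor on the 2 lines compared, added after the data were seen.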

Additional observations from a re-analysis of the deposited data

How the results depend on the processing

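No sample values were used, so leaving out samples was not possible. No paired analysis was possible because each line has 1 pooled value. Of 115 alternative values, 80 stayed within the tolerance (0.1 log2 for medians, 1.5-fold for counts) and 35 did not. No median changed sign. The tolerance for medians is close in size to those of 0.11, −0.09 and −0.11, so a median that nearly vanished could stay within it. For PC3-Epi against PC3-EMT14 the median of 0.11 became 0.04 with a floor of 3 FPKM and 0.19 with no floor. Counts past the limit depended on the floor and the limit, since the number of members counted changes with them. For PC3-Epi against PC3-EMT14, the 10 higher and 1 lower became 17 and 2 with a floor of 0.5 FPKM, 3 and 0 with a floor of 3, 44 and 9 with no floor, 22 and 5 at 1.5-fold, and 2 and 0 at 3-fold. A pseudocount of 1 FPKM gave 3 higher and 0 lower, one of 0.1 FPKM 0 lower, and centring on all genes 0 lower. For PC3-EMT14-OVOL1 against PC3-EMT14, the 2 lower became 6 with a floor of 0.5, 0 with a floor of 3, 23 (and 5 higher) with no floor, 12 (and 1 higher) at 1.5-fold, 0 at 3-fold, and 1 and 0 with pseudocounts of 0.1 and 1. For PC3-EMT14-OVOL2 against PC3-EMT14, 0 in both directions became 7 lower with a floor of 0.5, 20 lower and 5 higher with no floor, and 17 lower and 4 higher at 1.5-fold. Between the OVOL lines, 0 became 2 higher with a floor of 0.5, 9 higher and 4 lower with no floor, and 1 in each direction at 1.5-fold. A gap of 2 Mb gave 9 clusters in place of 16. Centred on all genes, the medians were 0.12, −0.09, −0.22 and −0.07 in place of 0.11, −0.09, −0.26 and −0.11. With the floor set on the 2 lines compared, chosen after seeing the data, the 2 lower members in PC3-EMT14-OVOL1 became 0, and PC3-Epi had 15 higher in place of 10. Unknown depth limits all values below 1 FPKM most.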
